A study of Mus musculus with 6 samples.

Results

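The genes described here are 7 transcription factors linked to the naive or resting state of T cells: Bach2, Tcf7, Lef1, Foxo1, Foxp1, Satb1 and Klf3. Every probe set that the array annotation paired with exactly 1 of these genes was taken, which gave 29 probe sets for 6 genes among 45101 on the array. The annotation used here paired no probe set with Tcf7, so Tcf7 has no value below. The genes lie on mouse chromosomes 4 (Bach2), 11 (Tcf7), 3 (Lef1 and Foxo1), 6 (Foxp1), 17 (Satb1) and 5 (Klf3). A probe set is the group of short probes that Affymetrix arrays use to read 1 stretch of a transcript. It passed the filter on dim signals when its mean over all 6 arrays reached an intensity of 35.4, as 27 of the 29 did. Two-sided tests on these 27 ran within a fit over all 27022 probe sets that passed.

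The arrays compared 5C.C7 T cells, CD4 cells with a transgenic receptor for a moth cytochrome c peptide (MCC), that either lacked CTLA-4 or were wild type. CTLA-4 KO cells came from 5C.C7 RAG2-/- CD45.1 CTLA-4-/- donors, and wild type cells came from 5C.C7 RAG2-/- CD45.1 donors. Both kinds were moved into B10.A mice and activated there by MCC peptide with LPS, and RNA of cells sorted on day 4 was hybridised, with 3 arrays per genotype. The sources used here give neither donor age nor the number of mice behind an array nor the sort markers, and the labels do not say that recipients lacked lymphocytes of their own. All 6 arrays are of cells activated in vivo, and the donors' own resting cells were not analysed here.

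CTLA-4 is an inhibitory receptor that competes with CD28 for CD80 and CD86. Naive T cells rest under a set of factors that they keep until antigen arrives. BACH2 pairs with small MAF proteins and represses effector genes. FOXP1 is a forkhead repressor that restrains the exit from quiescence, and KLF3 is a Krüppel-like repressor that works with CtBP. FOXO1 is a forkhead activator of Il7r, Ccr7 and Klf2 that leaves the nucleus when PI3K and AKT are active. TCF-1, encoded by Tcf7, and LEF-1 are HMG-box factors of the WNT pathway that act in T cell development and in memory and follicular helper cells. SATB1 folds chromatin at T lineage genes.

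Promoters of Bach2 and Foxp1 are printed because these were the genes among the 7 with a probe set past the threshold without a pairing term. Each run is the 250 bases before a RefSeq start (GRCm38.p6), 5′ to 3′ on the strand of the gene, and capitals mark matches to the TCF/LEF letters CTTTGA or CTTTGT on either strand. Bach2 had 1 start in the table, chr4:32417185-32417434 on the plus strand. Foxp1 had 3 starts on the minus strand of chromosome 6, of which chr6:99520994-99521243 and chr6:99266516-99266765 held matches and are shown. The Foxp1 runs are labelled by the first base printed, the end of the window far from the start, and not by the start.
Bach2: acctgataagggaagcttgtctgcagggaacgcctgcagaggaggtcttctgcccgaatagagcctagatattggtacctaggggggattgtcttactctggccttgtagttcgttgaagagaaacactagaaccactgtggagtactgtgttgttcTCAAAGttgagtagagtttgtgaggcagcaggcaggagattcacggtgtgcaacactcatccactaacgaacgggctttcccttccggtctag
Foxp1 at 99521243: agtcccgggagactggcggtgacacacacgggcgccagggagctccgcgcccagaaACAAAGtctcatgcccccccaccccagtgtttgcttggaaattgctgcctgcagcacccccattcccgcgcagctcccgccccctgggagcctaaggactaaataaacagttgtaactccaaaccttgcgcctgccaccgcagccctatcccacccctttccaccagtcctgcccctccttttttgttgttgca
Foxp1 at 99266765: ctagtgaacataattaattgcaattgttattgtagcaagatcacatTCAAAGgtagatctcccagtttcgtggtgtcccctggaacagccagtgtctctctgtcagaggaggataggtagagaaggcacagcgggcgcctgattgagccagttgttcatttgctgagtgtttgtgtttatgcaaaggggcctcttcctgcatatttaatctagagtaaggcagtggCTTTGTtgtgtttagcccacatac
The Bach2 match began 93 bases before the start. The Foxp1 matches began 194 bases before the first start shown and 204 and 24 bases before the other, and 1 more match lay at base 2 after the first start. In windows with a further 50 bases after the start, 6 of the 17 windows of the 7 genes held a TCF/LEF match, against 31.2% of 32851 promoters in the table. KLF letters (CACCC) were in 13 of the 17 windows and in 57.5% of all. FOXO letters (TGTTTAC) were in 1 of the 17 and in 3.65% of all. BACH/AP-1 letters (TGANTCA) were in 0 of the 17 and in 7.81% of all. In the 17 windows no match of 1 motif overlapped a match of another, and several windows of Lef1 and of Satb1 share bases. A match is a string in a window and shows no binding.

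Ctla4 was read by 1 probe set as a check of the labels. Its intensity was 812, 791 and 784 in CTLA-4 KO cells, against 5332, 4787 and 4587 in wild type cells. The residual signal was 16.2% of wild type (log2 difference −2.60 ± 0.10, SE, limma adjusted p = 1.45e-06), and the sources used here do not place its probes relative to the deleted part. The exact permutation test over the 6 arrays gave p = 0.1, the smallest that 3 against 3 allow. T cell markers were bright on all arrays, with 7 of 8 on the array and a summed intensity of 48362 to 49378 in CTLA-4 KO and 50552 to 56216 in wild type cells. Summed markers of myeloid, dendritic, NK and CD8 T cells reached at most 616 in CTLA-4 KO and 553 in wild type cells. The NK sum was 301 to 326 in CTLA-4 KO and 79.4 to 298 in wild type cells, and of its markers only Klrd1 passed the filter. The dendritic sum was 158 to 205 in CTLA-4 KO and 208 to 297 in wild type cells. Sums of myeloid and CD8 T cell markers overlapped between genotypes. Xist was high on array 2 of both genotypes, so array 2 is female cells and arrays 1 and 3 are male. The 5′ to 3′ signal ratio of Actb, a sign of RNA integrity, was 0.567, 0.691 and 0.544 in CTLA-4 KO, against 0.418, 0.41 and 0.584 in wild type cells. For Gapdh this ratio was 0.109, 0.205 and 0.178 in CTLA-4 KO, against 0.103, 0.0955 and 0.25 in wild type cells. Both ratios overlapped between genotypes.

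Among the 6 measured factors the differences ran from large to none detectable. Bach2 was well below its wild type level in CTLA-4 KO cells. Foxp1 was lower by a smaller amount, in calls that were lost in several settings. Satb1 passed with 2 of its 5 probe sets, and only with a pairing term. Lef1, Foxo1 and Klf3 passed the test in neither direction. Without a pairing term, 4 of the 27 probe sets were lower in CTLA-4 KO cells (2 of Bach2 and 2 of Foxp1) at an adjusted p under 0.05, where 0.47% of all tested probe sets were lower. None of the 27 was higher, where 0.785% of all were, and at an unadjusted p under 0.05 limma placed 11 lower and 0 higher, where 8.59% and 7.01% of all were. Arrays of the same replicate number were treated as pairs in a second fit. With the replicate number as a block 10 of the 27 were lower and 0 higher, against 4.8% and 3.86% of all. The groups did not overlap for 11 of the 27, each time with CTLA-4 KO cells lower and never higher, where 11.5% of all tested probe sets were separated with CTLA-4 KO cells lower and 9.46% with CTLA-4 KO cells higher. The median log2 difference was −0.24 over the 27 and −0.04 over all 27022. Several of these probe sets belong to 1 gene, so these counts are not counts of independent genes. The 7 genes were also chosen with earlier results of these data known. The shares of all probe sets are thus given for scale and make no independent test of the 7.

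Each gene was also reduced to its brightest probe set over the 6 arrays. Counted so, Bach2 was lower without the block, and Bach2 and Foxp1 were lower with it, among 11990 genes of which 0.5% were lower and 1.19% higher without the block and 3.44% lower and 5.48% higher with it. With all tested probe sets of a gene averaged, Bach2 differed by −1.05 ± 0.10 (adjusted p = 0.000827) and Foxp1 by −0.48 ± 0.09 (adjusted p = 0.0209). Array median intensities were 62.1, 63.7 and 71.5 in CTLA-4 KO and 68, 69.5 and 75.2 in wild type cells, and centring each array on its median split all calls into 56 lower and 247 higher, against 127 and 212. In bulk RNA, fewer cells of a type and less RNA per cell cannot be told apart.

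**Figure D1:**
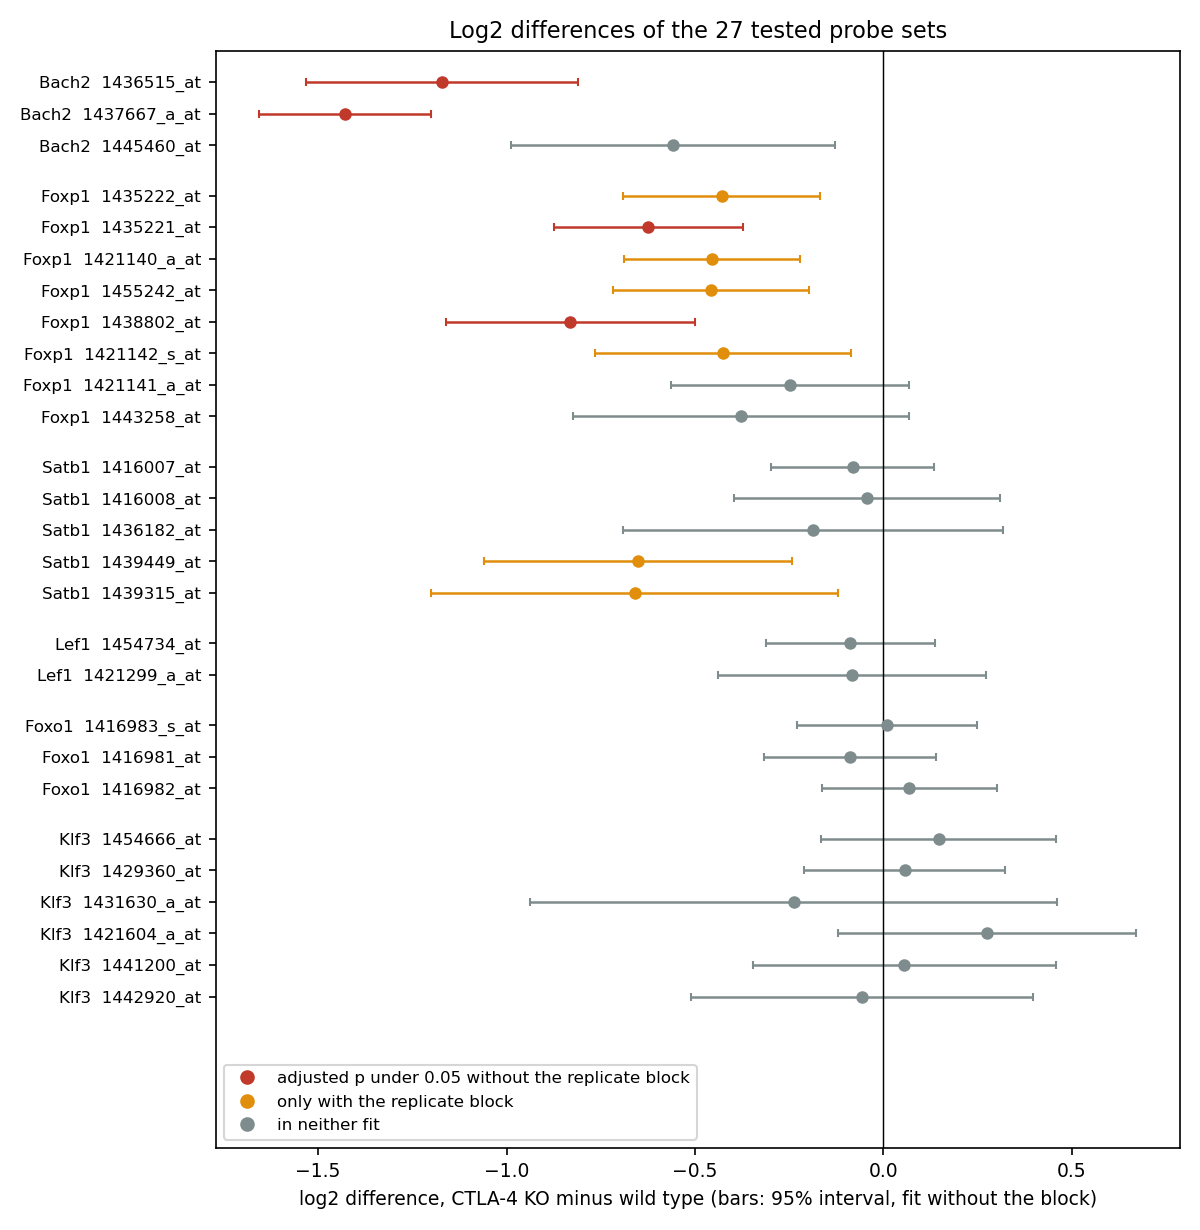
Log2 difference of each of the 27 tested probe sets, CTLA-4 KO minus wild type, on the log2(intensity + 16) scale with its 95% interval from the fit without the replicate block (n = 3 arrays per genotype). Bach2 and Foxp1 probe sets all lie left of 0, Lef1, Foxo1 and Klf3 lie around 0, and Satb1 falls in both places.

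Bach2, the repressor of effector genes, had the largest log2 differences among the 6 factors. Its probe set 1437667_a_at read 1298, 1215 and 1135 in CTLA-4 KO cells, against 3213, 3424 and 3245 in wild type cells. The brightest CTLA-4 KO array was far below the dimmest wild type array, and arrays of 1 genotype lay close together. The level was 36.9% of wild type, a log2 difference of −1.43 ± 0.10 (SE, limma adjusted p = 0.000295 without and 5.71e-06 with the replicate block). This call held under all 17 alternative settings, with log2 differences between −1.48 and −1.34 and adjusted p-values up to 0.0224.

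The Bach2 probe set with the highest mean log2 value, 1436515_at, read 1579, 1287 and 1171 in CTLA-4 KO cells, against 3791, 2907 and 2512 in wild type cells. Arrays 1 were the highest and arrays 3 the lowest in both genotypes, and the groups did not overlap. The level was 43.8% of wild type (−1.17 ± 0.16, limma adjusted p = 0.0112 without and 2.19e-05 with the replicate block). The difference within the 3 pairs was −1.26, −1.17 and −1.09. The call was lost without CTLA-4 KO replicate 2 (adjusted p = 0.0606), with replicates 1 and 3 only (0.157), without the intensity trend in the moderation (0.124) and with a term for the Actb ratio (log2 difference −0.98, adjusted p = 0.198).

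The third Bach2 probe set, 1445460_at, was dim. It read 114, 156 and 157 in CTLA-4 KO cells, against 221, 191 and 237 in wild type cells. The groups did not overlap, but the log2 difference of −0.56 ± 0.19 did not pass in either fit (limma adjusted p = 0.2 without and 0.0848 with the replicate block).

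**Figure D2:**
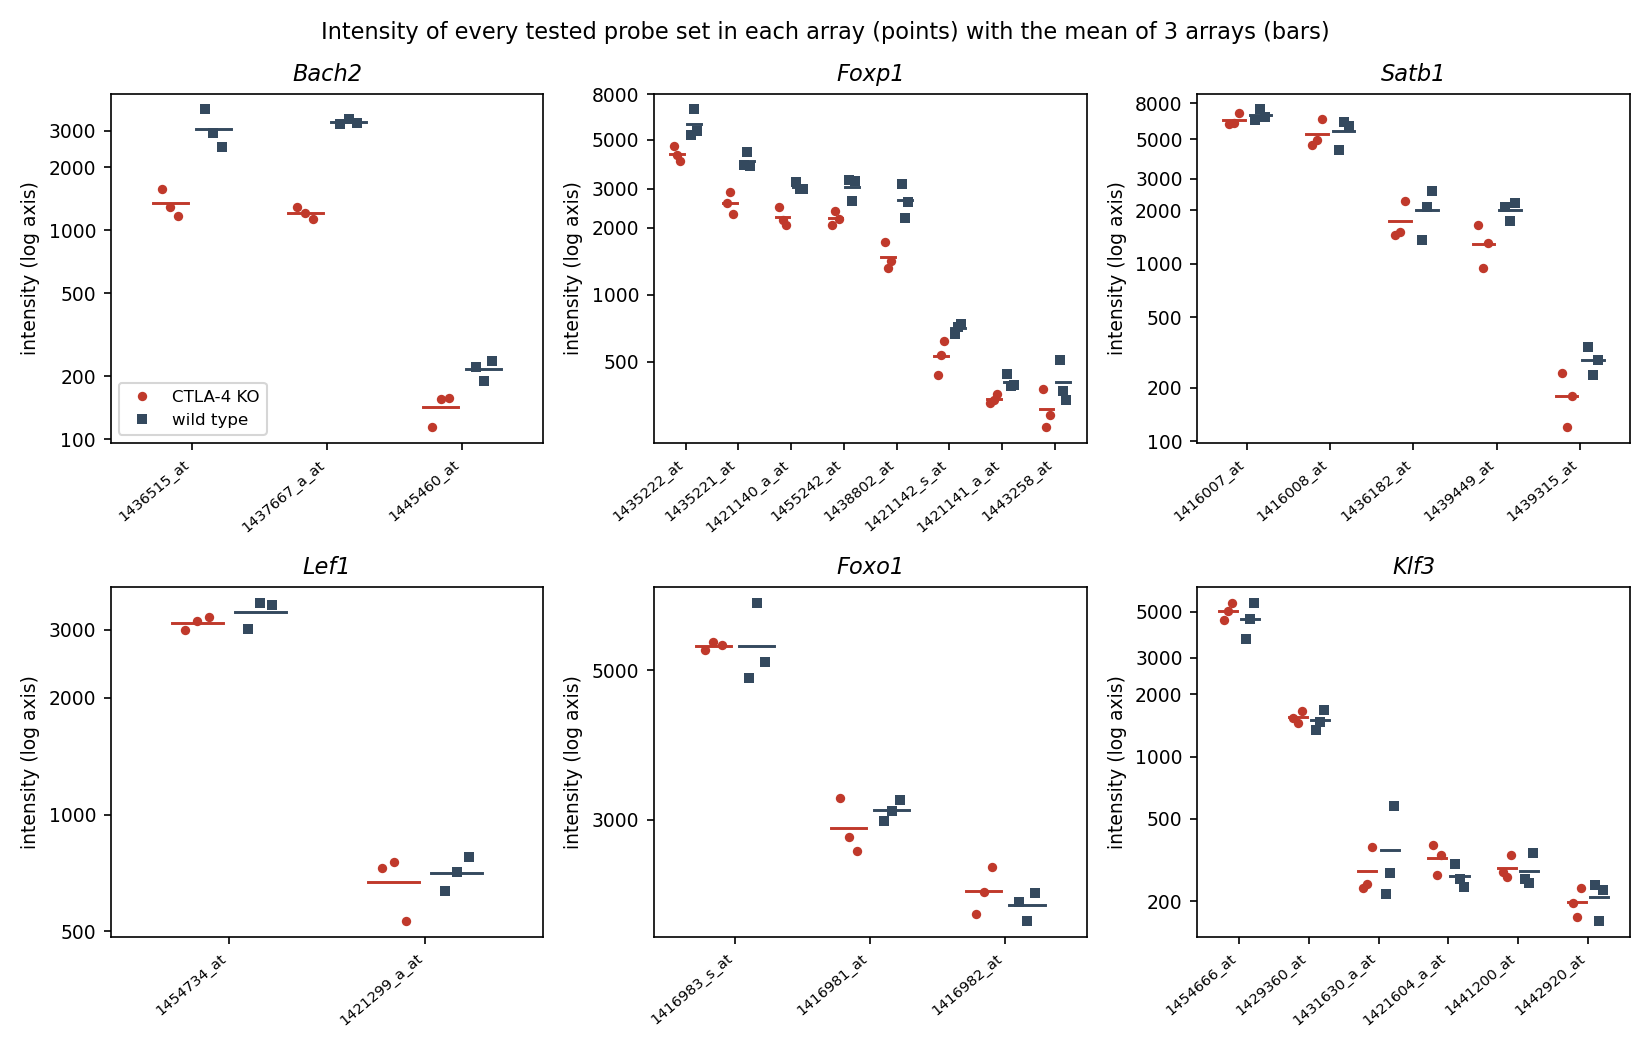
Intensity of each of the 27 tested probe sets (log axis) on every array, CTLA-4 KO as circles and wild type as squares, with bars for the mean of 3 arrays. The brightest pair of Bach2 probe sets separates by genotype with a wide gap, 1135 to 1579 against 2512 to 3791, while the groups overlap for all probe sets of Lef1, Foxo1 and Klf3.

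Foxp1, the forkhead repressor, was read by 8 probe sets, and all 8 had a negative log2 difference, between −0.83 and −0.25. For 7 of the 8 the groups did not overlap, with CTLA-4 KO cells lower, where 11.5% of all tested probe sets were so separated. Its brightest probe set, 1435222_at, read 4686, 4265 and 4008 in CTLA-4 KO cells, against 5229, 6834 and 5490 in wild type cells. This was 73.8% of wild type, and its log2 difference of −0.43 ± 0.12 did not pass without the block (limma adjusted p = 0.113) and passed with it (adjusted p = 0.0224).

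The Foxp1 probe sets that passed without the block showed the larger differences. Probe set 1438802_at read 1720, 1322 and 1416 in CTLA-4 KO cells, against 3162, 2218 and 2621 in wild type cells. That is 55.7% of wild type, with −0.83 ± 0.15 (limma adjusted p = 0.0289). Within the pairs it differed by −0.87, −0.74 and −0.88, so the spread between arrays of 1 genotype was shared by the arrays of 1 number. Probe set 1435221_at read 2589, 2890 and 2309 in CTLA-4 KO cells, against 3825, 4382 and 3798 in wild type cells. Its level was 64.9% of wild type (−0.62 ± 0.11, limma adjusted p = 0.0298), and array 2 was the highest in both genotypes.

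Both Foxp1 calls held with the replicate block (limma adjusted p = 0.00026 for 1438802_at and 0.00128 for 1435221_at). They were lost in some of the settings without it. The call of 1435221_at was lost when any of the 6 was left out (adjusted p between 0.0546 and 0.0981), and that of 1438802_at was lost without CTLA-4 KO replicate 2 or 3 or wild type replicate 1 or 3 (adjusted p between 0.0648 and 0.152). Leaving out an array also lowers the residual degrees of freedom, and over all settings the log2 differences lay between −0.70 and −0.54 for 1435221_at and between −0.96 and −0.70 for 1438802_at. Both were also lost after centring on array medians, where the log2 differences were −0.54 and −0.74, and with no filter on dim probe sets, without the intensity trend, with a term for the Actb ratio and with replicates 1 and 3 only. The sign of the Foxp1 difference stayed negative for all 8 probe sets in all 17 settings. For the 27 probe sets together, the count of lower calls was 1 without CTLA-4 KO replicate 2, and 2 each without CTLA-4 KO replicate 3, wild type replicate 1 or wild type replicate 3.

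With the replicate block, where 4.8% of all tested probe sets were lower, 6 of the 8 Foxp1 probe sets were lower. Beside the 3 above these were 1421140_a_at (limma adjusted p = 0.0691 without and 0.00835 with the block), 1455242_at (0.095 and 0.0207) and 1421142_s_at (0.218 and 0.0463), whose log2 differences lay between −0.46 and −0.42. The suffix _s marks probes that can also read related transcripts. Probe set 1421141_a_at read 325, 336 and 356 in CTLA-4 KO cells, against 438, 386 and 393 in wild type cells, and did not pass in either fit (adjusted p = 0.446 and 0.302). The dim probe set 1443258_at overlapped between genotypes, at 377, 253 and 289 in CTLA-4 KO cells and 507, 367 and 336 in wild type cells (adjusted p = 0.406 and 0.119).

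**Figure D3:**
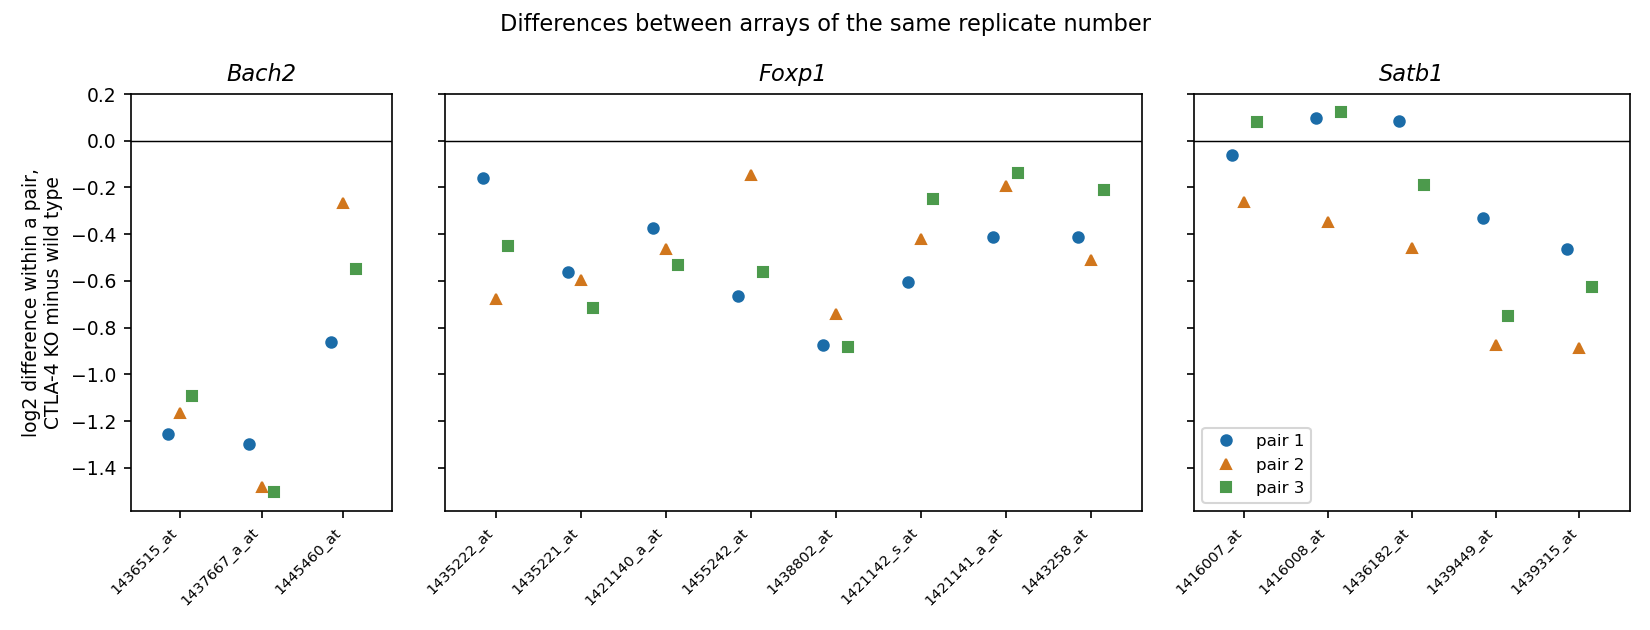
Log2 difference between the CTLA-4 KO and the wild type array of the same replicate number, for each tested probe set of Bach2, Foxp1 and Satb1. All 3 pairs are negative for the 3 Bach2 and the 8 Foxp1 probe sets, and for Satb1 they are all negative only for 1439449_at and 1439315_at.

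Klf3, the third repressor, did not pass the test with any of its 6 tested probe sets, with or without the block (limma, 0 also at an unadjusted p under 0.05). The brightest, 1454666_at, read 4577, 5034 and 5519 in CTLA-4 KO cells, against 3684, 4619 and 5506 in wild type cells. The groups overlapped, and in both genotypes array 1 was the lowest and array 3 the highest. The log2 difference was 0.15 with a 95% interval from −0.17 to 0.46, and it was −0.03 with a term for the Actb ratio. The other tested Klf3 probe sets differed by −0.24 to 0.27, all with overlapping groups. A seventh, 1458487_at, was below the filter at 17.6, 3.16 and 39.2 in CTLA-4 KO cells and 17, 10.4 and 9.67 in wild type cells.

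Satb1, the chromatin organiser, gave different answers by probe set. The brightest, 1416007_at, read 6146, 6157 and 7083 in CTLA-4 KO cells, against 6417, 7383 and 6708 in wild type cells. The groups overlapped, and the log2 difference of −0.08 had a 95% interval from −0.30 to 0.13 and turned to 0.01 after centring on array medians. Probe sets 1416008_at (−0.04) and 1436182_at (−0.19) did not pass either, with overlapping groups.

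The remaining pair of Satb1 probe sets was lower with the replicate block only. Probe set 1439449_at read 1651, 942 and 1299 in CTLA-4 KO cells, against 2083, 1740 and 2193 in wild type cells. The groups did not overlap, with array 2 the lowest in both genotypes. Its level was 64.7% of wild type (−0.65 ± 0.18, limma adjusted p = 0.121 without and 0.00437 with the block). Probe set 1439315_at was dimmer, at 242, 120 and 179 in CTLA-4 KO cells, against 340, 236 and 285 in wild type cells. These groups overlapped by 1 array, since CTLA-4 KO array 1 lay above wild type array 2. The log2 difference was −0.66 ± 0.24 (adjusted p = 0.227 without and 0.0279 with the block). The sources used here do not say which part of the Satb1 transcripts each probe set reads, and the difference between probe sets was not tested. The mean over the 5 Satb1 probe sets did not pass (−0.32 ± 0.12, adjusted p = 0.202).

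Foxo1, the activator of naive T cell genes, showed no detectable difference in its RNA. Its brightest probe set, 1416983_s_at, read 5356, 5505 and 5450 in CTLA-4 KO cells, against 4864, 6296 and 5142 in wild type cells. By its _s suffix this probe set can also read related transcripts. The CTLA-4 KO arrays lay inside the wild type range. The log2 difference was 0.01 with a 95% interval from −0.23 to 0.25, and it was −0.02 after quantile normalization. Probe set 1416981_at read 3232, 2824 and 2699 in CTLA-4 KO cells, against 2992, 3094 and 3206 in wild type cells (−0.09 ± 0.10, limma adjusted p = 0.728). Probe set 1416982_at read 2171, 2343 and 2552 in CTLA-4 KO cells, against 2266, 2125 and 2335 in wild type cells (0.07 ± 0.11, limma adjusted p = 0.799). The signs differ between probe sets, and 0 of 3 passed at an unadjusted p under 0.05. The last, 1456529_at, was below the filter, at 10.8, 10.1 and 7.25 in CTLA-4 KO cells and 9.76, 11.3 and 15.5 in wild type cells. RNA level says nothing of where the FOXO1 protein sits in the cell.

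Lef1, the HMG-box factor, was also close in both genotypes. Its brighter probe set, 1454734_at, read 2990, 3154 and 3229 in CTLA-4 KO cells, against 3007, 3514 and 3464 in wild type cells. The groups overlapped through wild type array 1. The log2 difference was −0.09 with a 95% interval from −0.31 to 0.14, and it was 0.00 after centring on array medians. Probe set 1421299_a_at read 728, 755 and 533 in CTLA-4 KO cells, against 635, 710 and 777 in wild type cells. CTLA-4 KO array 3 was the lowest of the 6 and wild type array 3 the highest (−0.08 ± 0.16, limma adjusted p = 0.845). Neither passed with the block or at an unadjusted p under 0.05.

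Across the 6 arrays, the centred log2 profiles of the brightest probe sets of Lef1 and Satb1 were the most alike of the 15 pairs of members, with a root mean square difference of 0.0651. Those of Bach2 and Klf3 were the least alike, at 0.768. Nearest profiles were sought among the 11990 genes, with clone and predicted-gene symbols such as Gm and Rik names set aside. Those closest to that of Bach2 1436515_at were Dstyk (0.0674), Lancl1 (0.0761) and Fancm (0.14). Dstyk averaged 126 ± 24.6 in CTLA-4 KO and 298 ± 79.0 in wild type cells, and Lancl1 averaged 1895 ± 304 in CTLA-4 KO and 4226 ± 749 in wild type cells (SD, n = 3). The 2 Lancl1 probe sets disagreed, at −1.15 and 0.33. The profiles closest to that of Foxp1 1435222_at were Cd84 (0.0624), Sema4f (0.0626) and Serinc4 (0.0667). Likeness to Bach2 or Foxp1 over 6 arrays is mostly likeness of the genotype difference. The measure is not scaled, so profiles that vary little, such as those of Lef1 and Satb1, also come out alike. All likenesses are given as a description. Where these genes lie relative to Ctla4 was not examined, and inheritance of differences together with the deleted gene was not tested.

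Related genes were read from 7 lists, each gene by its highest-mean probe set. These lists were also chosen with earlier results of these data known, so the shares of all genes are given for scale only. Of all 11990 genes, 0.5% were lower and 1.19% higher without the block, and 3.44% and 5.48% with it. Among other members of the same families, 12 of 17 listed genes passed the filter, and 0 were lower and 0 higher without the block (limma, 0 lower and 3 higher at an unadjusted p under 0.05, which 7.11% of all 11990 genes passed as lower and 9.42% as higher). With the block Klf2, a FOXO1 target that supports T cell circulation, and Klf10, a TGF-β-induced factor, were higher. Klf10 averaged 697 ± 50.03 in CTLA-4 KO and 442 ± 27.3 in wild type cells (SD, n = 3, log2 0.64, adjusted p = 0.0504 without and 0.00848 with the block). Among partners and corepressors, 11 of 14 were tested and 0 passed without the block (0 lower and 2 higher at an unadjusted p under 0.05). Mafg, which encodes a small MAF partner of BACH2, was higher with it, at 712 ± 76.8 in CTLA-4 KO and 408 ± 87.3 in wild type cells (adjusted p = 0.0535 without and 0.00217 with the block). Among other quiescence genes, 12 of 14 were tested and 0 passed without the block (2 lower and 2 higher at an unadjusted p under 0.05). With it Mxd4, a MYC antagonist, and Rbl2, a pocket protein that restrains the cell cycle, were lower, and Klf2 and Cdkn2c, a cyclin-dependent kinase inhibitor, were higher.

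Il7r, Bcl2l11 and Pik3ip1, which FOXO1 is known to activate, were lower in CTLA-4 KO cells. Of 15 FOXO1 targets tested, out of 17 listed, 3 were lower and 0 higher without the block, where 0.5% and 1.19% of all genes were. The block gave 6 lower and 2 higher, where 3.44% and 5.48% of all genes were. At an unadjusted p under 0.05 limma placed 6 lower and 2 higher, where 7.11% and 9.42% of all genes were. The list's median was −0.13, against 0.00 over all 11990 genes. Leaving out 1 array moved this median between −0.26 (without CTLA-4 KO replicate 3) and 0.05 (without CTLA-4 KO replicate 1), and it was −0.07 without wild type replicate 3. Il7r, the receptor chain for the survival cytokine IL-7, averaged 1432 ± 84.6 in CTLA-4 KO and 2986 ± 965 in wild type cells (SD, n = 3, −1.01 ± 0.19, limma adjusted p = 0.0352). Bcl2l11, which encodes the death factor BIM, averaged 4473 ± 365 in CTLA-4 KO and 9110 ± 2217 in wild type cells (−0.999 ± 0.15, adjusted p = 0.0154), and 3 of its 5 tested probe sets were lower. Pik3ip1, an inhibitor of PI3K, averaged 211 ± 49.0 in CTLA-4 KO and 452 ± 17.6 in wild type cells (−1.06 ± 0.19, adjusted p = 0.0268). With the block Ccr7, Sesn3 and Txnip were also lower, and Klf2 and Cited2 were higher. The count of lower calls was 1 without CTLA-4 KO replicate 3, wild type replicate 2 or wild type replicate 3, as with replicates 1 and 3 only. All 3 were lost (0 of 15) without CTLA-4 KO replicate 2, with a term for the Actb ratio, with no filter on dim probe sets and without the intensity trend.

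Of 12 naive T cell genes tested, out of 15 listed, 1 was lower without the block, which was Il7r again, and 0 were higher. Of all genes, 0.5% were lower and 1.19% higher in that fit. The block gave 5 lower and 1 higher, where 3.44% and 5.48% of all genes were. At an unadjusted p under 0.05 limma placed 6 lower and 1 higher, where 7.11% and 9.42% of all genes were. The list's median was −0.28. The further lower genes with the block were Ccr7, Dapl1, Igfbp4 and Als2cl, and Cd27, a costimulatory receptor, was higher. Dapl1 averaged 1192 ± 268 in CTLA-4 KO and 2301 ± 586 in wild type cells (SD, n = 3, limma adjusted p = 0.0612 without and 0.00571 with the block). The list's count of lower calls without the block was 3 without wild type replicate 1 and 0 without any other single array, and it was also 0 with no filter on dim probe sets, without the intensity trend, with a term for the Actb ratio and with replicates 1 and 3 only.

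Among 13 listed genes that BACH2 is known to repress, 12 passed the filter. One of them, Gzmb, which encodes the cytotoxic protease granzyme B, averaged 330 ± 184 in CTLA-4 KO and 29.1 ± 31.4 in wild type cells (SD, n = 3). Its wild type mean lies under the dimness floor, so it passed the filter through CTLA-4 KO cells, and it is given without a test and is not counted, a choice made after its values were seen (with it the median was 0.43). Of the other 11, 0 were lower and 2 higher without the block, where 0.5% and 1.19% of all genes were. The block gave 1 lower and 4 higher, where 3.44% and 5.48% of all genes were. Their median was 0.16. It lay between 0.03 (without CTLA-4 KO replicate 1) and 0.56 (without CTLA-4 KO replicate 3) when 1 array was left out. Rora, a nuclear receptor of type 2 and IL-17-producing cells, averaged 1597 ± 61.9 in CTLA-4 KO and 963 ± 33.6 in wild type cells (SD, n = 3, log2 0.72 ± 0.11, limma adjusted p = 0.0146). All 6 of its tested probe sets were positive, and 1 of the 6 passed. Ahr, the aryl hydrocarbon receptor, averaged 1315 ± 82.9 in CTLA-4 KO and 728 ± 109 in wild type cells (0.85 ± 0.14, adjusted p = 0.0183), while its other probe set differed by −0.70 and did not pass. With the block Prdm1, which encodes the effector regulator BLIMP-1, and Il12rb1 were also higher, and Gata3, the type 2 helper factor, was lower. Prdm1 averaged 112 ± 29.3 in CTLA-4 KO and 51.5 ± 6.24 in wild type cells (adjusted p = 0.114 without and 0.0366 with the block). The count of higher calls was 1 without CTLA-4 KO replicate 1 or wild type replicate 2. It was 0 without CTLA-4 KO replicate 2 or wild type replicate 3, with a term for the Actb ratio, without the intensity trend and with replicates 1 and 3 only.

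Among genes linked to TCF-1 and LEF-1, Ctla4 itself was lower. Of the other 12 tested, out of 13, 0 were lower and 1 higher without the block, where 0.5% and 1.19% of all genes were. The block gave 3 lower and 3 higher, where 3.44% and 5.48% of all genes were. Their median was −0.06. With Ctla4 counted, limma placed 4 lower and 3 higher at an unadjusted p under 0.05, where 7.11% and 9.42% of all genes were. Ctla4, the gene knocked out, is 1 of those 4, and its lower level follows from the design. Cxcr5, the chemokine receptor of follicular helper T cells, averaged 7561 ± 1282 in CTLA-4 KO and 3494 ± 659 in wild type cells (SD, n = 3, 1.11 ± 0.15, limma adjusted p = 0.0106, with 0.105 for a term with the Actb ratio and 0.124 without the intensity trend). With the block Bcl6, the follicular helper regulator, and Axin2, a WNT target, were higher, and Myb, Slamf6 and Il6st were lower. Bcl6 averaged 3123 ± 146 in CTLA-4 KO and 2259 ± 186 in wild type cells (adjusted p = 0.0609 without and 0.0112 with the block). Probe sets of Axin2 disagreed, at 0.46 and −0.38, as did those of Il6st, which ran from −0.38 to 0.58.

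**Figure D4:**
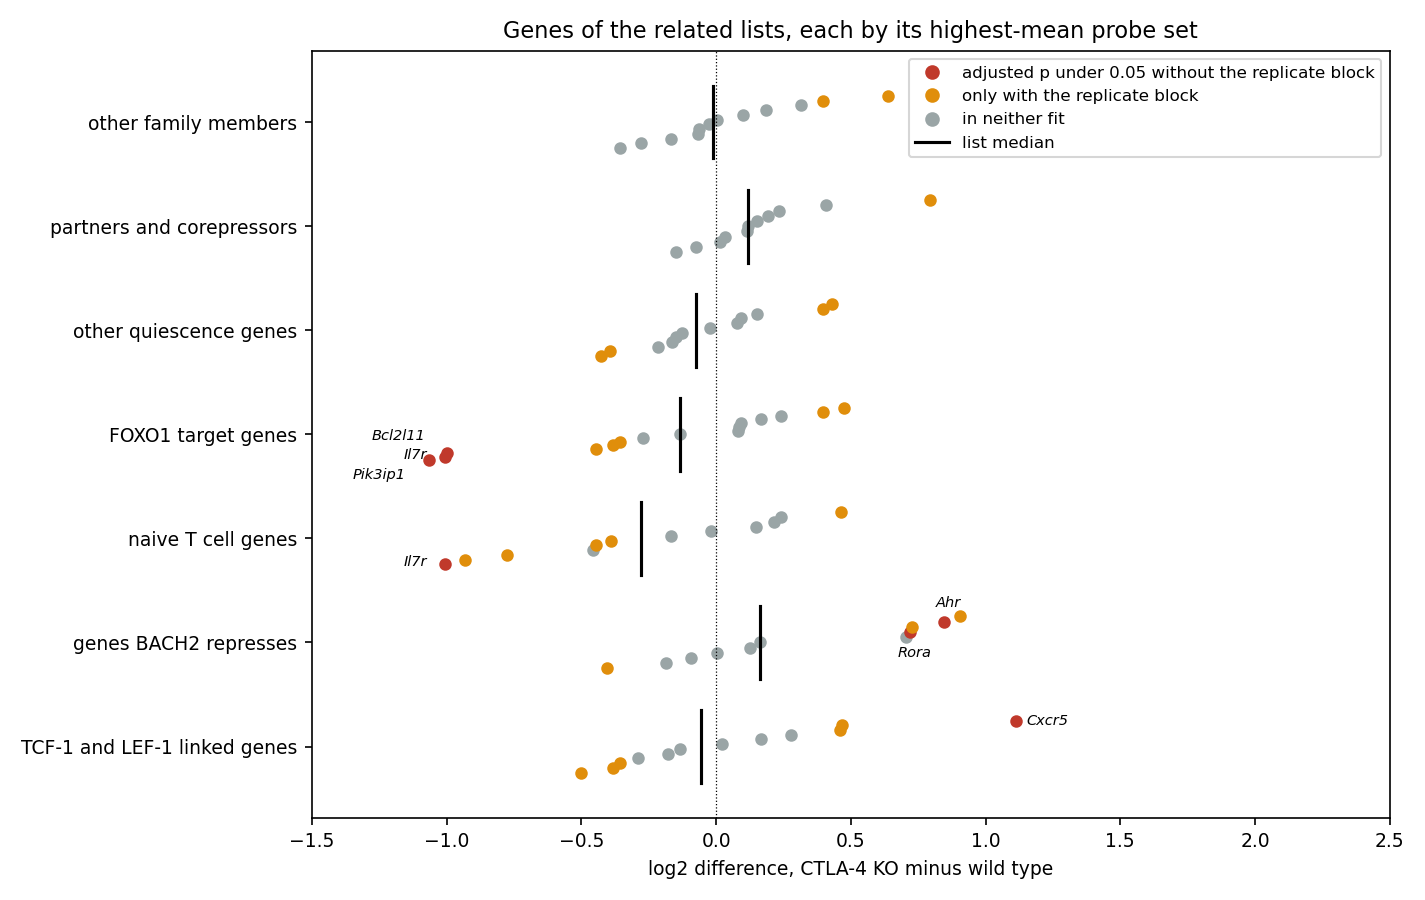
Log2 difference, CTLA-4 KO minus wild type, of each tested gene of the 7 related lists by its highest-mean probe set (points, coloured by the fit in which it passed) with the list median (bar), Ctla4 and Gzmb left out. The medians lie between −0.28 for naive T cell genes and 0.16 for genes BACH2 represses, and the lists hold genes on both sides of 0.

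Markers of other cells were read beside these results because BACH2, FOXO1, FOXP1 and LEF-1 also act in B cells. Of 9 B cell markers, 8 were on the array and 4 passed the filter. Their summed intensity was 869 to 1397 in CTLA-4 KO and 439 to 727 in wild type cells, most of it from Cd22, an inhibitory lectin, at 695, 916 and 1050 in CTLA-4 KO and 178, 204 and 261 in wild type cells (limma log2 difference 1.97, adjusted p = 0.00193). Cd79b read 78 to 109 in CTLA-4 KO and 100 to 118 in wild type cells. Without Cd22 the sum was 174 to 347 in CTLA-4 KO and 262 to 467 in wild type cells. Erythroid genes were near 0, with sums up to 31.1 in CTLA-4 KO and 13.5 in wild type cells. Cd79a, Pax5, Ebf1 and Fcer2a did not pass the filter, and Cd79a and Ebf1 stayed at 13.2 or lower in CTLA-4 KO and 26.7 or lower in wild type cells. The part of the Cd22 difference and of the Actb ratio in the results for Bach2 and Foxp1 was not tested beyond the values given.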

How the data were processed

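Biotin-labelled cRNA made from the total RNA of sorted T cells was read on Affymetrix arrays (per the labels' protocols). For each probe set and array the authors deposited 1 linear intensity. Partek and MAS5 are named, without versions, in the submitters' processing notes. The trimmed mean (2% left out at each end) is 500.003 on every array, the scaling of MAS5. The sources used here do not say how dim signals were handled.

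Intensities were turned into log2(intensity + 16), without the 64 controls. Probe sets with a mean at or above the 40th percentile (35.4 in intensity) were kept. Log2 differences (CTLA-4 KO over wild type) understate changes of dim genes and were tested with limma 3.58.1 in R 4.3.3 (lmFit and trended eBayes), adjusted by Benjamini-Hochberg over 27022 probe sets at 0.05. Levels of different probe sets were not compared. The number of arrays limits the precision. The labels call the arrays biological replicates without naming animals, so p-values measure the spread between these samples, which may be partly technical. Pearson's r between arrays over probe sets, which are not independent, was 0.968 to 0.983.

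Replicate numbers come from the titles. Same-numbered arrays deviated together from their genotype means, with correlations of 0.371, 0.24 and 0.254 for numbers 1, 2 and 3. They are treated as pairs in the fit with the replicate block only. The main fit and the other alternative settings, with those that leave out an array, held no pairing term. Genes were named from the platform annotation (34958 probe sets with 1 gene, 932 with several, 9211 with none), and current symbols were taken by gene ID from RefSeq GRCm38.p6, with 34754 matches. The members, the lists and the alternatives were chosen with earlier results of these data known. Named were all probe sets of the 7 genes, Ctla4, up to 4 genes per list past the threshold by smallest p, and the 3 profiles most like each called gene. Clone and predicted-gene symbols were set aside in that search for profiles. Genes named as past the threshold with the block only, and Cd22, are outside the rule: their values had been seen when they were picked.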

Additional observations from a re-analysis of the deposited data

How the results depend on the processing

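Of the results recomputed under the alternatives, no probe set of the 7 genes was higher under any of the 17 settings, and Bach2 1437667_a_at stayed lower in all of them. The count of all calls was 339 and became 111 with no filter on dim probe sets, 20 with no intensity trend in the moderation, 521 with array weights, 2341 with the replicate block, 21 with the Actb ratio as a term and 46 with replicates 1 and 3 only. It was 62 to 217 when 1 array was left out. The 4 lower probe sets of the 7 genes became 2 with no filter, 2 after median centring, 1 without the trend, 10 with the replicate block, 1 with the Actb term, 1 with replicates 1 and 3, and 1 to 3 with 1 array left out. The genes called lower by their highest-mean probe set were 1 (Bach2), 2 with the replicate block, 2 when probe sets were averaged, 0 without the trend, 0 with the Actb term, 0 with replicates 1 and 3, and 0 to 1 with 1 array left out. Leaving out an array also lowers the residual degrees of freedom, and the cause of the other changes was not tested.

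Of the 27 probe sets, 11 turned sign in at least 1 setting (5 of Klf3, 3 of Satb1, 2 of Lef1 and 1 of Foxo1), to log2 differences of at most 0.161 in size, and 0 of these 11 passed in any setting. Among the highest-mean probe sets these were Foxo1 1416983_s_at (−0.0173 with quantile normalization), Satb1 1416007_at (0.00711 after median centring and 0.00805 with replicates 1 and 3), Lef1 1454734_at (0.000971 after median centring) and Klf3 1454666_at (−0.0288 with the Actb term). With 1 array left out, Foxo1 1416983_s_at ran from −0.0654 to 0.12 and Klf3 1454666_at from −0.00413 to 0.285. Dim probe sets are limited by noise near the floor.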
